A study of Homo sapiens with 6 samples.

Results

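The nuclear-encoded genes of the mitochondrial respiratory chain were examined in SaOS-2 cells with and without induced p21. The genes were taken by symbol from the table of normalized counts: symbols starting with NDUFA, NDUFB, NDUFC, NDUFS or NDUFV and a number, the SDHA to SDHD genes, CYC1, and symbols starting with UQCR, COX4 to COX8 or ATP5. Pseudogene symbols were left out, which removed 1 row (ATP5EP2). This gave 90 genes of the 23228 in the table, 39 named for complex I, 4 for complex II, 10 for complex III, 18 for complex IV and 19 for complex V. Of these, 82 averaged 10 normalized counts or more over the libraries and were tested, and 8 averaged less (NDUFC2-KCTD14, COX4I2, COX6A2, COX7A1, COX7B2, COX8C, ATP5J2-PTCD1 and ATP5L2). By present knowledge 81 of the 90 symbols name subunits. The other 9 are read-through genes (NDUFC2-KCTD14, ATP5J2-PTCD1), gene copies (ATP5L2, UQCRHL), factors outside the complexes or of uncertain membership (NDUFA4L2, COX7A2L, ATP5S, ATP5SL) and COX4NB, an older symbol of a gene of the endoplasmic reticulum membrane complex.

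SaOS-2 is an osteosarcoma line that lacks functional RB and p53, and every library came from SaOS-2 cells carrying a Tet-inducible p21 vector. The p21 ON group was 3 libraries from cells given 1 μg/ml doxycycline for 24 h, and the p21 OFF group was 3 libraries from untreated cells. No cells given doxycycline without the vector were analysed here, so an effect of p21 and an effect of doxycycline, a tetracycline-class antibiotic that can itself act on mitochondrial protein synthesis, cannot be told apart. The study's methods call its replicates biological, and the labels do not say whether they were separate cultures, so p-values measure the spread between these libraries, which may be technical.

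Complexes I to IV pass electrons from NADH and succinate to oxygen, and complexes I, III and IV pump protons across the inner mitochondrial membrane. Complex V, the ATP synthase, uses the proton gradient to make ATP. A small set of core subunits carries the catalytic sites, and a larger set of short accessory subunits surrounds them. Most subunits are encoded in the nucleus and a few in mitochondrial DNA. Promoters of many nuclear-encoded subunits hold sites for NRF1, for ETS family factors such as GABP, for YY1 and for the estrogen-related receptors, and coactivators of the PGC-1 family act on these factors. The mitochondrially encoded subunits were not analysed here.

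CDKN1A, the gene of p21, stood at 1257, 1187 and 1355 normalized counts in p21 OFF and at 40470, 43863 and 46739 in p21 ON, so the induction matched the labels. The bone genes RUNX2, SP7, ALPL, COL1A1 and SPARC were each at 3028 normalized counts or more in all 6 libraries, whereas BGLAP was listed at 0. IBSP, another bone gene, was lower, at 139, 123 and 126 in p21 OFF and 95.5, 99.9 and 102 in p21 ON (log2 fold change -0.38, adjusted p = 0.0264). The libraries held 12795490 to 21975045 reads on genes. The first p21 OFF library was the shallowest, and it differed from the other p21 OFF libraries with a chi-square per gene of 8.48 and 9.28, against 2.71 to 3.97 for the other pairs of replicates. In 74 of the 82 tested genes that library held the highest value of the 6, and in 53 of the 82 the first p21 ON library held the lowest.

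Respiratory chain transcripts were lower with p21 ON. At an adjusted p of 0.05 (limma on log2(normalized count + 1), adjusted over 13255 genes), 46 of the 82 genes fell and 0 rose. Of all genes tested, 12.7% fell and 10.5% rose. No gene of the 82 was higher at an unadjusted p of 0.05 either, and 0 rose by edgeR or DESeq2. The fold change was below 0 in 75 of the 82, and the median log2 fold change was -0.24, against 0.0056 over all genes. The changes were small: the most negative was -0.44 (NDUFC2). In 54 of the 82 genes every p21 ON library was below every p21 OFF library, against 21.3% of all genes tested. As a share of all normalized counts, the 90 genes together took 0.847%, 0.730% and 0.707% in p21 OFF and 0.646%, 0.686% and 0.669% in p21 ON, so the groups did not overlap. Because counts were scaled within each library of bulk RNA, fewer cells with these transcripts and less of them per cell cannot be told apart. Without the first p21 OFF library 31 of the 82 fell (median -0.17), against 12.2% of all genes. Without the first p21 ON library 17 fell (median -0.20), against 6.69% of all genes, and without the third p21 ON library 23 fell (median -0.25), against 8.13%.

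**Figure D1:**
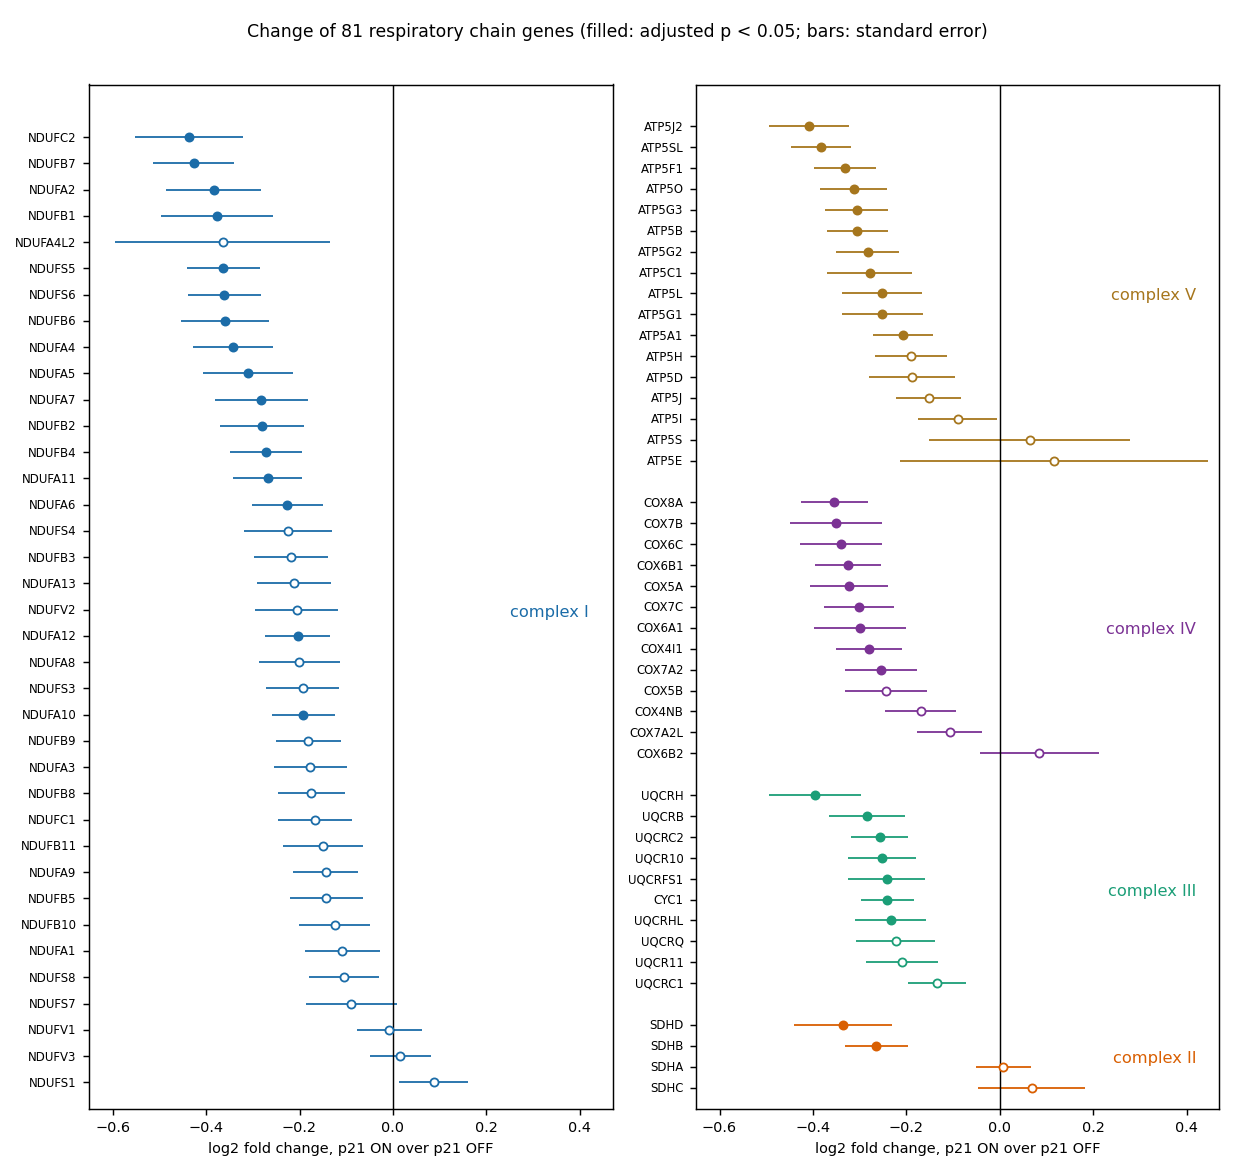
Log2 fold change of p21 ON over p21 OFF for 81 of the 82 tested genes, ordered within each complex; horizontal bars are standard errors from limma, and filled points passed an adjusted p of 0.05 (3 libraries a group). Filled points lie left of 0 in every complex, and the points right of 0 are all open.

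Gene length moved with this result. The tested respiratory chain genes had a median coding length of 423 nt, against 1434 nt for all genes tested, and across all genes the fold change rose with coding length (Spearman correlation 0.36 across 12308 genes, which are not independent replicates and share the same 6 libraries). Among genes with up to 600 nt of coding sequence, 31.4% of all genes fell, and 34 of the 59 respiratory chain genes did (median -0.25, against -0.16 for all genes of that class). For longer coding sequences of up to 1500 nt the share was 15.0%, and 10 of 19 respiratory chain genes fell. For over 1500 nt it was 7.37%, and 2 of 4 did. When a trend on transcript length was taken out of each library before the fit, 15 of the 82 fell, against 12.8% of all genes, and the median was -0.09. With a trend on coding length taken out, a setting chosen after seeing the data, 15 fell, against 12.5% of all genes, and the median was -0.10. These were partly other genes: 7 of the 46 fell in both settings, and the share of all genes that did is not given here. Some transcript lengths used are long for the gene, such as 8459 nt for UQCRB and 8356 nt for NDUFA9. Both genes fell in the transcript length setting and did not pass in the coding length setting (adjusted p = 0.197 and 0.234). Thus the size of the decrease depended on the treatment of length, and the number of genes that fell went from 46 to 15. What made fold changes follow length was not tested.

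**Figure D2:**
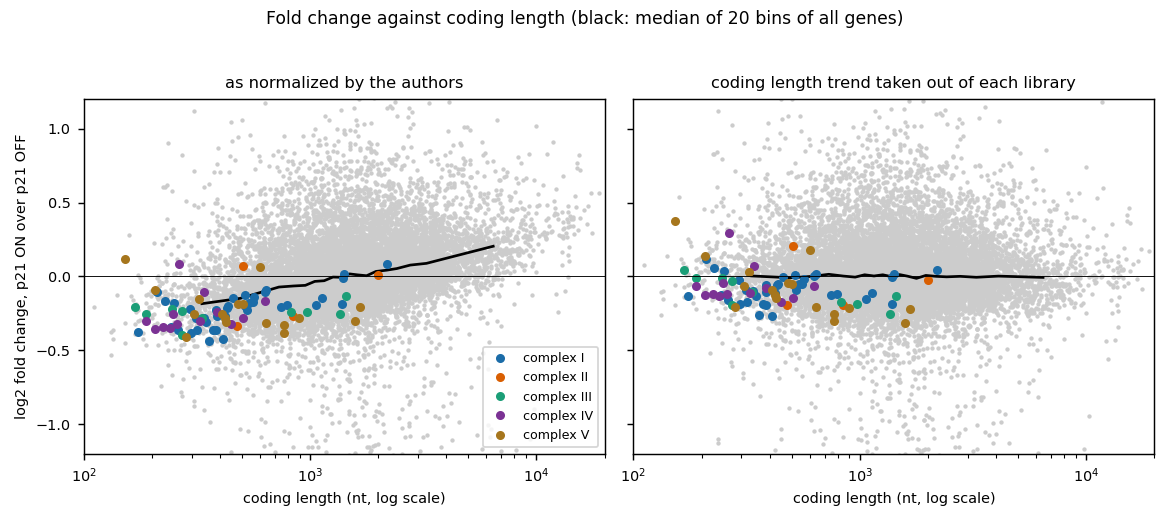
Log2 fold change against coding length (log scale) for all genes tested (grey) and for the respiratory chain genes by complex (colours), with the black line giving the median of 20 bins of all genes and genes of larger change lying outside the axis; left, values as normalized by the authors, and right, after a coding length trend was taken out of each library. On the left the black line rises with length and most coloured points lie at short lengths and below 0, with a median of -0.24; on the right the line is near 0 and the median of the coloured points is -0.10.

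By complex, 17 of 38 tested genes named for complex I fell (median -0.20), 2 of 4 for complex II (median -0.13), 7 of 10 for complex III (median -0.24), 9 of 13 for complex IV (median -0.30) and 11 of 17 for complex V (median -0.25). Of all genes tested 12.7% fell, and of those with up to 600 nt of coding sequence 31.4% fell. With the transcript length trend taken out 6, 0, 3, 1 and 5 genes of complexes I to V fell, against 12.8% of all genes. With the coding length trend taken out the numbers were 4, 1, 2, 0 and 8, against 12.5% of all genes. Differences between complexes were not tested. To follow a complex through the libraries, each gene was expressed as its log2 deviation from its own mean over the 6 libraries. The median deviation of complex I was 0.25, 0.07 and 0.01 in p21 OFF and -0.18, -0.03 and -0.10 in p21 ON. For complex IV it was 0.28, 0.06 and 0.04 in p21 OFF and -0.21, -0.07 and -0.16 in p21 ON. In all 5 complexes every p21 OFF median lay above every p21 ON median, and the first p21 OFF library was the highest.

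**Figure D3:**
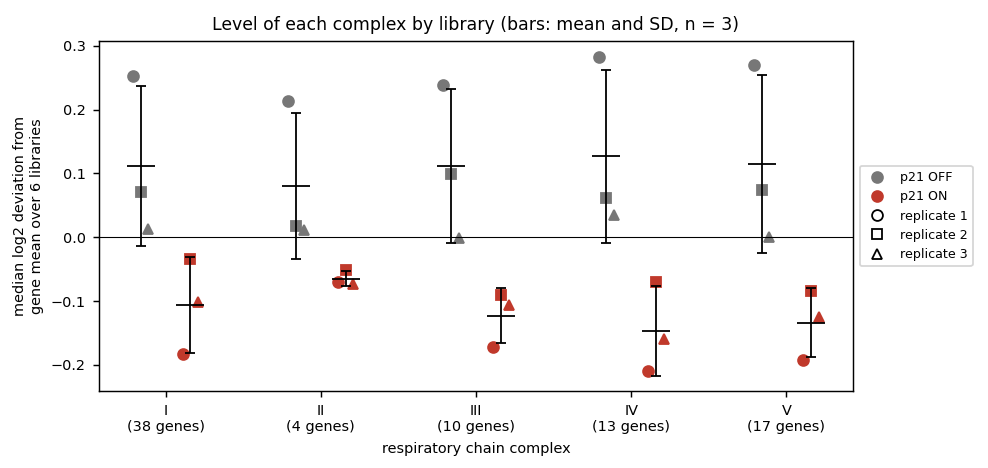
Median log2 deviation from the mean over 6 libraries of the tested genes of each complex, with a point for each library (grey, p21 OFF; red, p21 ON; symbols, replicates) and bars for the mean and SD over 3 libraries. The grey points lie above the red points in each complex, and the highest grey point is replicate 1, at 0.25 for complex I and 0.28 for complex IV.

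In complex I the core subunits, which hold the NADH site, the iron-sulfur clusters and the quinone site, had fold changes nearer to 0 than the accessory subunits. The median log2 fold change was -0.11 over the 7 core genes and -0.22 over the 29 accessory genes. Of the accessory genes 15 fell, against 12.7% of all genes tested. The difference in medians was not tested, and the core genes have longer coding sequences. With the transcript length trend taken out, the medians were 0.07 for the core genes and -0.07 for the accessory genes, of which 5 fell (12.8% of all genes). With the coding length trend taken out, the medians were -0.0055 and -0.09, and 3 accessory genes fell (12.5% of all genes). NDUFS1, the largest subunit, held 1477, 1672 and 1788 normalized counts in p21 OFF and 1802, 1813 and 1619 in p21 ON, and its groups overlapped (log2 fold change 0.09, 95% interval -0.07 to 0.24). NDUFV1, which binds NADH, held 1182, 1047 and 1104 in p21 OFF and 1044, 1097 and 1172 in p21 ON (log2 fold change -0.0083, interval -0.15 to 0.14). For NDUFS3, NDUFS7, NDUFS8 and NDUFV2 the fold changes were -0.19, -0.09, -0.11 and -0.21, and none passed the test.

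Among the accessory genes of complex I, the 2 largest falls were those of NDUFC2 and NDUFB7, both of the membrane arm. NDUFC2 held 332, 258 and 236 normalized counts in p21 OFF and 207, 209.6 and 186 in p21 ON, without overlap (log2 fold change -0.44, SE 0.12, adjusted p = 0.0117). NDUFC2 shares exons with a read-through gene, NDUFC2-KCTD14, listed at 0 in all 6 libraries. NDUFB7, on the intermembrane space side of the membrane arm, held 992, 822 and 807 in p21 OFF and 594, 645 and 707 in p21 ON. All p21 ON values lay below the p21 OFF values, and the log2 fold change was -0.43 (SE 0.09, adjusted p = 0.0020). NDUFS5, another subunit of that side, went from 1261, 1048 and 1037 to 841, 899 and 851 (log2 fold change -0.36, adjusted p = 0.0030). In the peripheral arm, NDUFS6, a zinc-binding subunit of the NADH module, went from 854, 777 and 749.5 to 591, 673 and 590.1 (log2 fold change -0.36, adjusted p = 0.0031), and NDUFA2 from 304, 266 and 243 to 199, 202 and 219 (log2 fold change -0.38, adjusted p = 0.0112). The membrane arm subunits NDUFB1 and NDUFB6 had log2 fold changes of -0.38 and -0.36. Each of these genes had p21 ON values below all p21 OFF values. NDUFV3, a small subunit near the NADH site, was the single accessory gene with a fold change above 0 (939, 879 and 889 in p21 OFF, 899.9, 921 and 915 in p21 ON, log2 fold change 0.02). NDUFB9 had the highest count per kb of transcript among the genes named for complex I and did not pass (6082, 5266 and 4914 against 4665, 4831 and 4792, adjusted p = 0.0686).

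Complex II oxidizes succinate and is also the succinate dehydrogenase of the tricarboxylic acid cycle. Of its 4 genes SDHB and SDHD fell, and SDHA and SDHC did not pass. With the transcript length trend taken out 0 of the 4 passed (adjusted p = 0.0805 for SDHB and 0.0857 for SDHD). With the coding length trend taken out SDHB passed (adjusted p = 0.0120) and SDHD did not (adjusted p = 0.146), and with single libraries left out SDHB passed in 5 of 6 fits and SDHD in 2. The coding length is 1992 nt for SDHA, 840 nt for SDHB, 507 nt for SDHC and 477 nt for SDHD. SDHB, the iron-sulfur subunit, held 2722, 2350 and 2302 normalized counts in p21 OFF and 2000, 2078 and 2042 in p21 ON, without overlap (log2 fold change -0.26, SE 0.07, adjusted p = 0.0092). SDHA, the flavoprotein that sits next to it, held 3530, 3286 and 3266 in p21 OFF and 3300, 3503 and 3328 in p21 ON, with overlap (log2 fold change 0.0073, interval -0.12 to 0.13). The anchor subunit SDHD went from 310.2, 253 and 242 to 220.0, 212 and 202 (log2 fold change -0.34, SE 0.10, adjusted p = 0.0264). The other anchor subunit, SDHC, stood at 177, 136 and 159.7 in p21 OFF and 168, 161 and 164 in p21 ON (log2 fold change 0.07, interval -0.17 to 0.31). Within both pairs of subunits the ratio was lower in every p21 ON library than in every p21 OFF library. The ratios use the same counts as the fold changes above, so they are not separate evidence. The ratio of SDHB to SDHA was 0.771, 0.715 and 0.705 in p21 OFF and 0.606, 0.593 and 0.614 in p21 ON, and that of SDHD to SDHC was 1.75, 1.86 and 1.52 in p21 OFF and 1.31, 1.32 and 1.23 in p21 ON. A permutation test of 3 against 3 cannot give an exact two-sided p below 0.10.

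Promoter stretches of 90 bases of SDHD and SDHA are given because the genes encode subunits of the same complex and only the first passed the test. Those of NDUFS6 and ATP5O are given as genes of complexes I and V that fell. The stretches lie at different distances from the start. Each holds an NRF1 core match, which 24 of 65 genes had, so they do not stand for the respiratory chain genes at large. The sequences are from RefSeq on GRCh38.p14, 5′ to 3′ on the strand of the gene and upstream of its start. Capitals mark the NRF1 core CGCANGCG in either orientation and, in SDHD, also the ETS core CCGGAAG in the reverse orientation. Both NRF1 matches of ATP5O are reverse complements of the core, whereas those of SDHA read forward.
SDHD (chr11:112086739-112086828): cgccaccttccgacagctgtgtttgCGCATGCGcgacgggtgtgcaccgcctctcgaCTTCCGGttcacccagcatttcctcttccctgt
SDHA (chr5:218138-218227): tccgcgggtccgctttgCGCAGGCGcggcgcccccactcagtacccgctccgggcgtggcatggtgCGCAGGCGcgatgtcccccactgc
NDUFS6 (chr5:1801317-1801406): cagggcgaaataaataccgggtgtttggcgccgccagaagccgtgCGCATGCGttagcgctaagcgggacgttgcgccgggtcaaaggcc
ATP5O (chr21:33915810-33915899): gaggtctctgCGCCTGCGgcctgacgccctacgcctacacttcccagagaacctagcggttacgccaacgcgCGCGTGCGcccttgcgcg
SDHA, which did not pass, holds 2 NRF1 core matches in its stretch, as does ATP5O, which fell.

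Promoter motifs were counted over both strands in windows from 250 bases before to 50 after each gene's start, for the 65 tested respiratory chain genes with a window. The NRF1 core CGCANGCG stood in 24 of them (36.9%), against 22.1% of 10235 tested genes and 10.1% of all 34961 windows. The ETS core CCGGAAG stood in 21 (32.3%, against 22.0% and 10.3%), the YY1 motif AAGATGGC in 12 (18.5%, against 6.53% and 2.89%) and the estrogen-related receptor core AAGGTCA in 10 (15.4%, against 3.70% and 3.92%). Conversely, the SP and KLF box GGGCGG stood in 42 (64.6%, against 77.0% and 45.0%) and the CHR element TTTGAA, the element of many late cell cycle genes, in 3 (4.62%, against 14.0% and 15.2%). The E-box CACGTG stood in 7 (10.8%, against 12.6% and 7.27%). A match is a stretch of letters and not a measured binding site. The median log2 fold change was -0.23 with and -0.22 without an NRF1 match, -0.22 with and -0.23 without an ETS match, and -0.20 with and -0.24 without a YY1 match. Of the 24 genes with an NRF1 match 14 fell, and of the 41 without it 21 fell. Of the 10 with the receptor core 9 fell, and of the 55 without it 26 fell, with medians of -0.27 and -0.22. Of all genes tested 12.7% fell, but the share that fell among all genes with each motif is not given here. The numbers by motif are therefore not read as a result about the motifs. The calls also depended on the treatment of length, and the differences were not tested.

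In complex III, which passes electrons from ubiquinol to cytochrome c, all 10 fold changes were below 0 and 7 genes fell, against 12.7% of all genes. With the transcript length trend taken out 3 fell, against 12.8%, and with the coding length trend 2, against 12.5%. CYC1, the cytochrome c1 subunit, held 3489, 3374 and 3316 normalized counts in p21 OFF and 2782, 2902 and 2931 in p21 ON (log2 fold change -0.24, SE 0.06, adjusted p = 0.0061). UQCRC2, a core protein that faces the matrix, held 1501, 1506 and 1516 in p21 OFF and 1275, 1299 and 1212 in p21 ON (log2 fold change -0.26, SE 0.06, adjusted p = 0.0061). The p21 OFF values of these genes were close to each other, and no p21 ON value reached them. CYC1 did not pass with the transcript length trend taken out (adjusted p = 0.0823), whereas UQCRC2 passed with either length trend taken out. The Rieske iron-sulfur protein gene UQCRFS1 went from 515, 481 and 431 to 397, 411 and 395 (log2 fold change -0.24, adjusted p = 0.0425). UQCRFS1 did not pass with the coding length trend taken out (adjusted p = 0.110), and it passed in 1 of 6 fits with a library left out. UQCRC1, the partner of UQCRC2, did not pass (3289, 2972 and 2883 against 2787, 2699 and 2832, log2 fold change -0.13, interval -0.27 to -0.0030). UQCRH, the acidic hinge protein next to cytochrome c1, went from 1056, 849 and 777 to 667, 743 and 617 (log2 fold change -0.40, SE 0.10, adjusted p = 0.0076), the most negative value of the complex. Its intronless copy UQCRHL was listed at 1114, 997 and 969.8 in p21 OFF and 801, 941 and 879 in p21 ON (log2 fold change -0.23, adjusted p = 0.0344). Reads of these near-identical genes may be divided between them, so the values of both are uncertain. UQCRH and UQCRHL did not pass with either length trend taken out. The ratio of UQCRH to UQCRHL was 0.948, 0.852 and 0.801 in p21 OFF and 0.833, 0.790 and 0.702 in p21 ON, with overlap.

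Complex IV, cytochrome c oxidase, had the most negative median, although with either length trend taken out the median of complex V was more negative. Its nuclear-encoded subunits surround a mitochondrially encoded core, and many exist as a ubiquitous form and a form of particular tissues. COX8A, the ubiquitous form of a small membrane subunit, held 2563, 2211 and 2243 normalized counts in p21 OFF and 1695, 1946 and 1845 in p21 ON (log2 fold change -0.35, SE 0.07, adjusted p = 0.0018). COX7B, a membrane subunit, went from 1191, 912 and 888 to 757, 860.2 and 715 (log2 fold change -0.35, adjusted p = 0.0155), and COX6B1, which sits on the intermembrane space side, from 2104, 1946 and 1772 to 1491, 1504 and 1643 (log2 fold change -0.33, adjusted p = 0.0033). The groups did not overlap in any of these genes. COX4I1, a regulatory subunit, went from 2875, 2439 and 2428 to 2065, 2255 and 2041 (log2 fold change -0.28, adjusted p = 0.0092), and COX5A from 566, 523 and 481 to 395, 441 and 418 (log2 fold change -0.32, adjusted p = 0.0096). COX5B, the zinc-binding subunit, held 2402, 1787 and 1880 against 1597, 1762 and 1728 and did not pass (log2 fold change -0.24, adjusted p = 0.0517). NDUFA4, named for complex I and assigned to complex IV by later work, went from 1423, 1276 and 1080 to 936, 971 and 1057 (log2 fold change -0.34, adjusted p = 0.0083). With NDUFA4 moved there and the symbols that name no subunit left out, 10 of 12 tested subunit genes of complex IV fell and the median was -0.31. Of all genes tested 12.7% fell. With the transcript length trend taken out 2 of these 12 fell, COX7B and NDUFA4 (adjusted p = 0.0085 and 0.0055), against 12.8% of all genes. With the coding length trend taken out 0 of the 12 fell, against 12.5% of all genes.

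The isoforms of complex IV that are found in particular tissues were nearly absent from SaOS-2 cells, with 1 exception. COX4I2, the lung form, had 0 reads in all 6 libraries, which allows at most 5.63 normalized counts per kb of transcript in the shallowest library (3 reads, for counting error only), where COX4I1 had 3604 in p21 OFF and 2962 in p21 ON. COX6A2 and COX7A1, forms of heart and skeletal muscle, had at most 2 reads and 1 read in a library, and the testis forms COX7B2 and COX8C at most 2 reads. COX6B2, a testis form, was the exception. It held 209.7, 191 and 173 normalized counts in p21 OFF and 212, 163 and 239 in p21 ON, with overlap (log2 fold change 0.08, interval -0.18 to 0.35). Per kb of transcript it made up 8.21% ± 0.0855 (SD, n = 3) of the sum of COX6B1 and COX6B2 in p21 OFF and 10.7% ± 1.48 in p21 ON. NDUFA4L2, a hypoxia-induced relative of NDUFA4, held 45.2, 39.1 and 37 in p21 OFF and 21, 36.6 and 39.0 in p21 ON and did not pass (log2 fold change -0.36, interval -0.85 to 0.12). COX7A2, the form of COX7A in most tissues, had the highest count per kb of the complex and went from 2742, 2334 and 2361 to 1874, 2085 and 2278 (log2 fold change -0.25, adjusted p = 0.0236). COX6A1 went from 839, 647 and 631 to 527, 625 and 557 (log2 fold change -0.30, adjusted p = 0.0353).

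**Figure D4:**
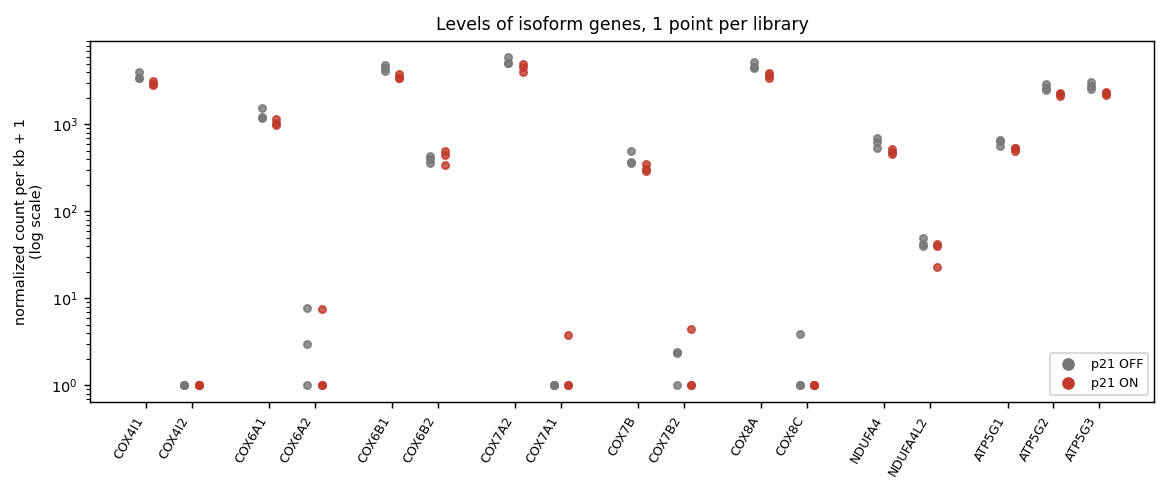
Normalized count per kb of transcript plus 1 (log scale) of isoform genes of complexes IV and V in each of the 3 p21 OFF (grey) and 3 p21 ON (red) libraries. The ubiquitous forms lie far above the tissue forms, of which COX6B2 is well above 1 in all 6 libraries and COX4I2 lies at the value for a count of 0.

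In complex V the catalytic F1 head and the membrane-bound Fo part both held genes that fell, 3 of 5 for F1 and 7 of 10 for Fo. Of all genes tested 12.7% fell. With the transcript length trend taken out 2 F1 and 2 Fo genes fell, against 12.8% of all genes. With the coding length trend taken out 3 F1 and 4 Fo genes fell, against 12.5%. ATP5B, the catalytic beta subunit, held 9471, 8437 and 8340 normalized counts in p21 OFF and 6857, 7560 and 6820 in p21 ON (log2 fold change -0.30, SE 0.07, adjusted p = 0.0031). ATP5A1, the alpha subunit that alternates with it, held 4775, 4358 and 4229 in p21 OFF and 3815, 4092 and 3668 in p21 ON (log2 fold change -0.21, SE 0.06, adjusted p = 0.0264). Neither gene had a p21 ON value within the p21 OFF range. ATP5C1, the gamma subunit of the rotating stalk, went from 1353, 1077 and 1078 to 880.1, 1083 and 922, with overlap (log2 fold change -0.28, adjusted p = 0.0351). ATP5D, the delta subunit, did not pass (log2 fold change -0.19, interval -0.38 to 0.0076). ATP5E, the epsilon subunit, had values of only 8.53 to 16.2 (log2 fold change 0.12, interval -0.58 to 0.81), while the row of its pseudogene ATP5EP2, which the choice of genes left out, held 482, 423 and 309 in p21 OFF and 284, 275 and 276 in p21 ON. Reads of the near-identical pair may have been counted on the pseudogene, so the level of ATP5E is uncertain.

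In the Fo part, ATP5J2, the f subunit of the membrane part, held 4230, 3679 and 3062 in p21 OFF and 2737, 2603 and 2859 in p21 ON, without overlap (log2 fold change -0.41, SE 0.09, adjusted p = 0.0028). The peripheral stalk holds the F1 head in place. Of its genes ATP5F1 went from 1101, 1030 and 995 to 843, 815 and 823 (log2 fold change -0.33, adjusted p = 0.0018) and ATP5O from 2301, 1949 and 2003 to 1632, 1792 and 1601 (log2 fold change -0.31, adjusted p = 0.0046), whereas ATP5H and ATP5J did not pass (log2 fold changes -0.19 and -0.15, adjusted p = 0.0849 and 0.123). ATP5J had the highest count per kb among the complex V genes over the 6 libraries together, 7217 against 7212 for ATP5J2, although ATP5J2 was higher in p21 OFF (8255 against 7603). ATP5J stood at 4424, 3814 and 3759 normalized counts in p21 OFF and 3409, 3509 and 3862 in p21 ON. The proton-carrying c ring is built from a single mature protein encoded by ATP5G1, ATP5G2 and ATP5G3, and all 3 genes fell, with log2 fold changes of -0.25, -0.28 and -0.31 (adjusted p = 0.0461, 0.0066 and 0.0037). Their shares of the summed count per kb were 10.2%, 43.9% and 45.9% in p21 OFF and 10.4%, 44.1% and 45.4% in p21 ON. With the transcript length trend taken out ATP5G1, ATP5G2 and ATP5G3 did not pass (adjusted p = 0.658, 0.213 and 0.0523). With the coding length trend taken out only ATP5G3 passed (adjusted p = 0.454, 0.0983 and 0.0450). ATP5G1 passed in 1 of the 6 fits with a library left out. ATP5I, the e subunit, did not pass (log2 fold change -0.09, interval -0.27 to 0.09). ATP5SL, now known as DMAC2 and named as an assembly factor of complex I rather than a subunit of complex V, had the lowest adjusted p of the 82 genes. It held 1630, 1712 and 1572 in p21 OFF and 1199, 1254 and 1314 in p21 ON (log2 fold change -0.38, SE 0.06, adjusted p = 0.00037).

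The calls were not equally steady. With each library left out in turn 13 of the 46 genes fell in all 6 fits, and 7 of the 46 fell under both length settings, with the transcript length trend or the coding length trend taken out. These criteria together left 6 genes, given here with their positions on GRCh37 from GENCODE release 44: NDUFB7 (chr19:14676890-14682878), UQCRC2 (chr16:21964609-21994981), ATP5B (chr12:57031959-57039768), ATP5F1 (chr1:111991486-112005395), ATP5J2 (chr7:99046098-99063809) and ATP5SL (chr19:41937223-41946622). The share of all genes that met the same criteria together is not given here. The 13, 7 and 6 genes are therefore not read as more than among other genes. Of all genes, 12.8% fell with the transcript length trend and 12.5% with the coding length trend taken out. The share was 6.69% to 12.5% with single libraries left out. ATP5F1 overlaps exons of WDR77 on the other strand and ATP5J2 shares exons with PTCD1 and a read-through gene. In all, 33 of the 90 genes overlap exons of a gene on the opposite strand, and the strand setting of the counting was not given in the sources used here. Of the 36 genes that did not pass, 16 had a 95% interval entirely below 0 and 20 had an interval that included 0.

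**Figure D5:**
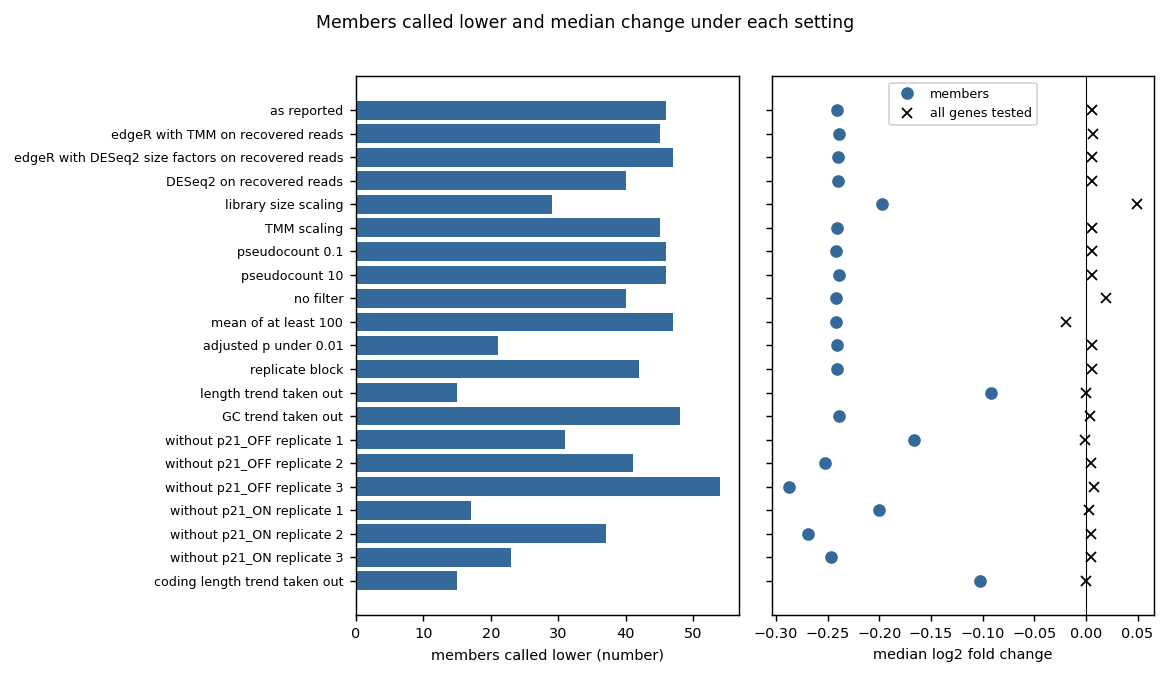
Number of respiratory chain genes that fell at the threshold (left, bars from 0) and median log2 fold change of those genes and of all genes tested (right) for the reported fit and each alternative setting. The number ranges from 15 with a length trend taken out to 54 without p21 OFF replicate 3, and the median of the respiratory chain genes stays below 0. Of all genes, 12.8% fell with the transcript length trend out, 12.5% with the coding length trend out and 12.5% without that replicate.

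Genes that assemble, regulate or feed the respiratory chain were described from lists drawn up for this purpose and read against the same shares of all genes, 12.7% lower and 10.5% higher. Of 45 assembly factors 11 fell and 0 rose (median -0.13). C19orf79, the older symbol of the complex IV assembly factor PET100, went from 91.7, 86.7 and 79.8 normalized counts to 46.6, 48.7 and 58.0 (log2 fold change -0.75, adjusted p = 0.0020). C11orf83 (UQCC3), a factor of complex III, and FOXRED1, a factor of complex I, had log2 fold changes of -0.46 and -0.40 (adjusted p = 0.0041 and 0.0017). C11orf83 did not pass with the coding length trend taken out (adjusted p = 0.0804). Of 17 regulators 4 fell and 1 rose (median -0.09). NRF1, the transcription factor named for these genes, held 398, 422 and 381 in p21 OFF and 215, 286 and 236 in p21 ON, without overlap (log2 fold change -0.71, SE 0.10, adjusted p = 7.2e-05). GABPB1, a subunit of GABP, went from 432, 403 and 384 to 278, 295 and 276 (log2 fold change -0.52, adjusted p = 0.00027), while GABPA, its DNA-binding partner, did not pass (log2 fold change 0.03, interval -0.15 to 0.22). TFAM, which packages mitochondrial DNA and acts in its transcription, also fell (log2 fold change -0.28, adjusted p = 0.0251). PPARGC1B, a coactivator of the PGC-1 family, was the regulator that rose, from 270.0, 309 and 303 to 434, 372 and 403 (log2 fold change 0.45, SE 0.09, adjusted p = 0.0016). The calls of NRF1, GABPB1 and PPARGC1B held with either length trend taken out and with each library left out. TFAM passed with the transcript length trend taken out but not with the coding length trend (log2 fold change -0.20, adjusted p = 0.0704), and in 1 of the 6 fits with a library left out.

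Of 16 tricarboxylic acid cycle enzymes 2 fell and 0 rose (median -0.10). These were IDH3B, a subunit of isocitrate dehydrogenase, and MDH2, mitochondrial malate dehydrogenase (log2 fold changes -0.24 and -0.20, adjusted p = 0.0189 and 0.0228). IDH3B did not pass with the transcript length trend taken out (adjusted p = 0.0694). Of 20 mobile carriers and partner proteins 6 fell and 0 rose (median -0.12). They included ATPIF1, the inhibitor of the ATP synthase (4215, 3864 and 3640 against 3106, 3179 and 3267, log2 fold change -0.29, adjusted p = 0.0032), and the coenzyme Q synthesis genes COQ2 and PDSS1 (log2 fold changes -0.43 and -0.48, adjusted p = 0.0034 and 0.0123). ATPIF1 did not pass with the transcript length trend (adjusted p = 0.236) or the coding length trend (adjusted p = 0.129) taken out. COQ2 and PDSS1 passed in both of these settings. CYCS, cytochrome c itself, did not pass (log2 fold change -0.19, adjusted p = 0.0581). With the transcript length trend taken out, 1611 of 12630 genes (12.8%) fell and 1300 rose. In that setting 7 assembly factors, 4 regulators, 1 cycle enzyme and 2 carriers or partners fell, and 1 regulator and 1 cycle enzyme rose. These were partly other genes. The assembly factors SCO1 and LRPPRC, the regulator YY1 and the cycle enzyme DLST, which rose, had not passed in the reported fit. SSBP1, a regulator, and ATPIF1 were among the genes that fell in the reported fit and no longer passed.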

How the data were processed

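RNA from SaOS-2 cells was sequenced in 3 p21 OFF and 3 p21 ON libraries. The authors' processing notes and methods name STAR, HTSeq and DESeq2, with reads mapped to hg19, and tool versions and the strand setting are not given in the sources used here. The deposited values are a signal per gene that is 0 or above: counts that the authors divided by DESeq2 size factors. All value columns were assigned to a sample. Values were whole multiples of a step in 100% of cases (within 0.1 read), which returned the reads, 12795490 to 21975045 per library.

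Differential expression was tested with limma 3.58.1 (lmFit, eBayes with trend) in R 4.3.3 on log2(normalized count + 1), for genes with a mean of at least 10, without covariates, with Benjamini-Hochberg adjustment over 13255 genes and a threshold of 0.05. Fold changes on this scale understate changes of weakly expressed genes. Scripts were tested on simulated data. Alternatives used edgeR 4.0.16 and DESeq2 1.42.0 on the recovered reads, other scalings, pseudocounts (0.1 and 10), filters and thresholds, a replicate block, trends on length and GC content taken out of each library, and each library left out. All 90 genes were matched to GENCODE release 44 on GRCh37, 20 of them by an older symbol. Transcript length is that of the shortest consensus coding transcript. Some of these are long for their gene, and the transcript length setting uses them as they are. For the same reason levels per kb are compared only within families and for the highest gene of a complex. Promoter windows were found for 69 of the 90 genes.

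Genes and lists were chosen with earlier results of these data known. Genes named are the 12 with the largest calls in each direction, the highest per kb in each complex, core subunits, isoform pairs and the 3 lowest adjusted p-values in each pathway list. Further genes (NDUFV3, COX7B2, NDUFA4L2 and members of complex V among them) were named after their values were seen. A gene that this rule names is not reported here.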

Additional observations from a re-analysis of the deposited data

How the results depend on the processing

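The number of respiratory chain genes that fell is given here with the share of all genes tested that fell in the same setting. It was 46 as reported (12.7%). With edgeR, DESeq2, TMM scaling, other pseudocounts or other filters it was 40 to 47 (8.35% to 15.7%). It was 48 with the GC trend taken out (14.6%) and 21 at an adjusted p of 0.01 (6.65%). Scaling by library size alone gave 29 (9.01%). That scaling moved the median of all genes to 0.049 and gave 1194 lower and 2034 higher genes, against 1681 and 1393. The number was 15 with the transcript length trend (12.8%) and 15 with the coding length trend taken out (12.5%). With single libraries left out it was 17 to 54 (6.69% to 12.5%). None rose under any setting run. With the transcript length trend taken out the medians were -0.058 for complex I, -0.051 for complex II, -0.11 for complex III, -0.10 for complex IV and -0.12 for complex V, and with the coding length trend -0.093, -0.11, -0.12, -0.12 and -0.13. With single libraries left out the medians ranged from -0.25 to -0.15 for complex I, -0.16 to -0.07 for complex II, -0.29 to -0.18 for complex III, -0.35 to -0.20 for complex IV and -0.33 to -0.17 for complex V.

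The sign of the fold change turned for 17 of the 82 genes with the transcript length trend and for 11 with the coding length trend taken out, and 1 gene that had fallen (UQCRHL) was among the 17. With the transcript length trend taken out ATP5J was at 0.056, NDUFB9 at 0.0013, NDUFS7 at 0.083, NDUFS8 at 0.071, NDUFV1 at 0.082, UQCRHL at 0.031, ATP5I at 0.17, ATP5H at 0.0050, ATP5D at 0.0026 and NDUFV3 at -0.055. With the coding length trend taken out ATP5J was at 0.032, NDUFS7 at 0.015, NDUFS8 at 0.0013, ATP5I at 0.14 and SDHA at -0.023. SDHA was at -5.1e-05 with the GC trend taken out, and NDUFV1 at 0.036 with library size scaling. With single libraries left out COX6B2 ranged from -0.034 to 0.24, NDUFV1 from -0.052 to 0.037, SDHA from -0.019 to 0.043 and SDHC from -0.033 to 0.16. The cause of these changes was not tested, apart from the length and GC trends that the settings themselves take out.

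With a replicate block 42 respiratory chain genes fell, against 11.4% of all genes. The numbers are not known to pair samples: the deviations of same-numbered libraries correlated at -0.057, -0.024 and -0.048, and no sample correlated best with its own number. Low counts limit the precision for ATP5E, ATP5S and NDUFA4L2.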
